A study of Mus musculus with 24 samples.

Results

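The m6A peaks described here lie in long internal coding exons of the mouse kidney. A peak was taken when its midpoint fell in an exon of at least 400 bp that was neither the first nor the last exon of the longest-CDS transcript of a protein-coding gene (build GRCm38), and when it held neither the start nor the stop codon. Of 91013 peaks listed for 12 kidneys, 10633 (11.7%) met this rule, in 1465 exons of 1231 genes. A further 2870 peaks with a midpoint in such an exon were left out because they held a start or stop codon. The comparison set was the 38147 peaks chosen in the same way from internal coding exons under 400 bp, so that the long exons held 21.8% of all peaks in internal coding exons.

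The peaks came from methylated RNA immunoprecipitation sequencing (MeRIP-seq), in which fragmented RNA is pulled down with an antibody against m6A and sequenced. The kidneys came from male C57BL/6 mice, 8 weeks old, 4 per group. Controls received saline daily and a vehicle injection, the injury group (IG) received saline and then 20 mg/kg cisplatin, and the treatment group (TG) was given 20 mg/kg berberine daily over 14 days and then the same cisplatin dose. All kidneys were taken 72 h after cisplatin or vehicle, and IG was compared with controls (IvC) and TG with IG (TvI). Whole kidney was used, so a smaller number of cells of one type and less RNA per cell cannot be told apart, and the peak lists hold no expression level with which to check the tissue against its markers.

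N6-methyladenosine (m6A) is written on nascent mRNA by a METTL3-METTL14 complex, mostly at the short motif RRACH (A or G, A or G, A, C, and then A, C or T), and is read by YTH-domain proteins that influence splicing, translation and decay. Most adenosines in such a motif are not methylated. The mark is known to gather near stop codons and in unusually long internal exons. The exon junction complex, deposited on RNA just upstream of each splice junction, is known to keep the writer away from nearby sequence, so that short exons flanked by junctions on both sides are mostly covered by it while the middle of a long exon is not. Long internal exons often encode disordered or repetitive parts of large scaffold, chromatin and Golgi proteins.

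The windows below show the RNA-sense sequence (written as DNA) of 4 long exons to which the results return. They were read from GRCm38, and each is the stretch of 150 bases within the listed region that held the most RRACH motifs on the gene's strand. Capitals mark RRACH, of which GGACT is one form. The Eif5b exon was at the score ceiling of 3100 (explained with the scores) in every kidney, the next 2 were listed in IG and TG but in no control, and Tgoln1 was listed in controls alone.
Eif5b (chr1:38018865-38019014, plus strand): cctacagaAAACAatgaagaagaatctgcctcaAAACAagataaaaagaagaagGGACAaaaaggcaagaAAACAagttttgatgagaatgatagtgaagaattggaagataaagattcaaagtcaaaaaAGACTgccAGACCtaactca
Prg4 (chr1:150454209-150454358, minus strand): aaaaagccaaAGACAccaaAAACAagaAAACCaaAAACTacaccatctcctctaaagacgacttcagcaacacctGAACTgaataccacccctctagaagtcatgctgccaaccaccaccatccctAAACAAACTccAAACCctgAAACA
Map1a (chr2:121303563-121303712, plus strand): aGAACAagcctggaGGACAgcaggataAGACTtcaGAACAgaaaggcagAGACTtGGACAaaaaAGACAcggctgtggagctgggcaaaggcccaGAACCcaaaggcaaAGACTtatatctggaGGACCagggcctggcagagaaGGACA
Tgoln1 (chr6:72615844-72615993, minus strand): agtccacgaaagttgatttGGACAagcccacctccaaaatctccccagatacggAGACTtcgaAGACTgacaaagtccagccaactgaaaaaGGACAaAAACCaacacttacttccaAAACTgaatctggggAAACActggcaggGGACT
The windows held 6 RRACH motifs in Eif5b, 9 in Prg4, 11 in Map1a and 8 in Tgoln1, and the only GGACT among them was in Tgoln1. For scale, 89.6% of 26823 non-overlapping windows of 150 bases from all long internal coding exons held an RRACH, with a median of 2 per window, and 15.7% held a GGACT. A motif is a description of the letters and not a methylated site, and these windows were picked for their motif number.

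Long internal exons were few but held a large part of the peaks. The annotation had 4587 of them among 165657 internal coding exons (2.77%), with 17.2% of the bases and a median length of 680 bp, against 122 bp for the 161070 shorter exons. The exons with a peak had a median length of 806 bp, 545 of the 1465 were at least 1000 bp, and the longest was 9837 bp. Of these exons, 1429 were wholly coding, and 1043 (71.2%) were neither first nor last in any coding transcript of their gene. The next-to-last exon of the transcript made up 12.4% of the exons with a peak, compared with 15.5% of all long and 10.4% of all shorter internal coding exons. In 187 genes, 2 or more long exons had a peak.

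Most listed regions were whole exons. In long exons 76.2% to 80.3% of the peaks of a kidney started and ended exactly at the exon's borders (78.8% ± 1.23, SD over 12 kidneys), whereas in shorter exons the share was 95.5%. The difference, -16.6 percentage points, had the same sign in 12 of 12 kidneys (exact sign-flip test, two-sided, p = 0.000488, the smallest that 12 kidneys allow). The lists therefore locate m6A in a long exon mostly to the exon, not to a position in it. The step by which listed regions came to match exon borders is not given in the sources used here. It bears on the whole-exon share, the bases under peaks, the peaks per kb and the motif densities below. Whether it also bears on the scores and on the share of listed exons was not tested. The kidneys' lists share their exons, so that p-values over the 12 kidneys describe the lists and not independent exons. The labels number the kidneys of a group and name no animal, so that part of the spread between kidneys may be technical.

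Long exons were far more often listed than shorter ones. Within the genes that had any peak in that kidney, 42.4% to 51.0% of the long exons had a peak, with a median of 47.2%, whereas 6.76% to 8.77% of the shorter exons did. The ranges did not overlap, and the mean difference was 39.5 percentage points (SD 2.24, n = 12 kidneys, exact sign-flip p = 0.000488). Because a gene could enter this count through its long exon alone, the count was repeated with genes that had a peak in another exon, which gave a difference of 31.8 points. Over all protein-coding genes the difference was 17.2 points. In both it was positive in 12 of 12 kidneys. With only exons that were internal in every coding transcript it was 41.5 points, and with wholly coding exons alone 51.3 points. In the shares of exons with a peak, here and below, an exon whose only peak was left out for a codon counted as having none.

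Of the bases of long exons in genes with a peak, 67.0% ± 3.501 (SD, n = 12) lay under a peak, and of those of shorter exons 9.43%, a difference of 57.6 points (exact sign-flip p = 0.000488). A long exon takes more bases into this measure when it is listed whole. The number of peaks per kb of exon went the other way, with 0.451 in long and 0.567 in shorter exons (difference -0.116, lower in long exons in 12 of 12 kidneys, exact p = 0.000488). A listed exon nearly always held 1 peak (in control 4, 1054 long-exon peaks lay in 1049 exons). For a given share of listed exons this measure therefore falls with exon length, and it is no measure of m6A density. The size and direction depended on what was counted. With peaks scoring at least 71.3 the difference was -0.0254 (exact p = 0.0181), and with 5901 peaks in every list -0.0701. It was reversed over all protein-coding genes (0.0516 peaks per kb more in long exons), and with wholly coding exons alone the difference was -0.0166 (exact p = 0.118).

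**Figure D1:**
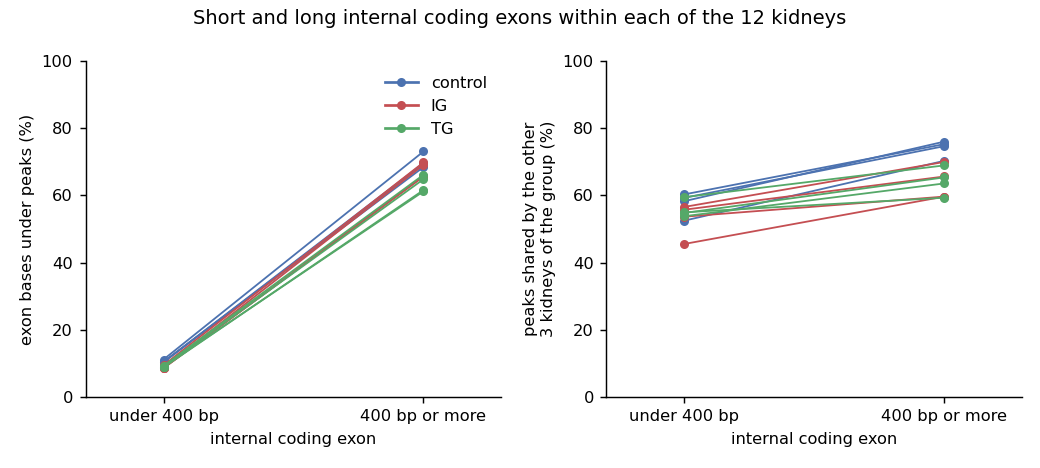
Each line joins the shorter and the long internal coding exons of one kidney, coloured by group. The left panel plots the percentage of exon bases under peaks and the right panel the percentage of peaks that were also listed in the other 3 kidneys of the group; all 12 lines rise, from 9.43% to 67.0% of bases and from 55.4% to 67.4% of peaks on average, and in the right panel the 4 lines of a group rest on 1 shared set of peaks.

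The share of listed exons rose with exon length over the whole range and not at 400 bp alone. Averaged over the 12 kidneys, 5.59% of exons under 100 bp had a peak, 7.69% of those from 100 to under 200 bp, 10.5% of those up to 300 bp and 19.5% of those up to 400 bp. Above the threshold the share was 34.7% from 400 to under 600 bp, 46.9% up to 1000 bp, 57.6% up to 2000 bp and 66.3% at 2000 bp and more. Just outside the threshold, exons from 350 to under 400 bp had a peak in 22.9% ± 2.47 of cases (SD, n = 12), and just inside, those from 400 to under 450 bp in 32.8% ± 2.45. The density of RRACH did not follow this order. It was 17.1 per kb in exons under 100 bp, 16.03 per kb from 200 to under 300 bp, 17.2 per kb from 400 to under 600 bp and 17.9 per kb at 2000 bp and more.

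**Figure D2:**
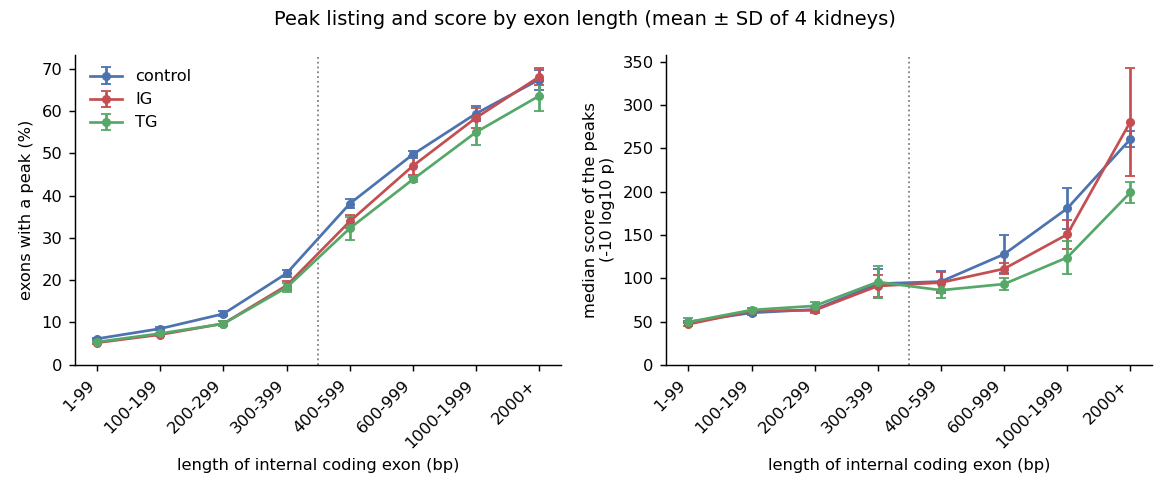
Percentage of internal coding exons with a peak (left) and median peak score (right) by exon length in bp, with points for group means and bars for the SD of 4 kidneys. The dotted line marks 400 bp; the share rises from 5.59% in the shortest class to 66.3% in the longest, averaged over the 12 kidneys.

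Scores were higher in long exons. The score is -10 log10 of the peak caller's p-value and depends on read depth as well as on enrichment, and the lists piled up at 3100, where 1086 peaks stood and only 79 were higher, so that peaks at this ceiling cannot be ranked. The median score of long-exon peaks was 102 to 150 in the 12 kidneys, and that of shorter-exon peaks 56.2 to 65.2. Long exons were higher in every kidney, by 66.0 on average (SD 18.03, n = 12, exact sign-flip p = 0.000488). The median was 48.5 in exons under 100 bp and 247 in those of 2000 bp and more. It did not rise across the threshold, with 93.5 from 300 to under 400 bp and 92.4 from 400 to under 600 bp. At the ceiling stood 233 long-exon peaks (2.19%) and 377 shorter-exon peaks (0.988%).

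A larger share of the peaks in long exons was common to the kidneys of a group. In the mean kidney 67.4% ± 6.14 (SD, n = 12) of the long-exon peaks were listed in all other kidneys of its group, and 55.4% of the shorter-exon peaks, a mean difference of 11.96 points. The 4 kidneys of a group share 1 set of common peaks, so that their values differ mainly by the length of their lists and are given as a description, with no test. Among peaks scoring no lower than 71.3, the median over the lists, the difference was 2.59 points, and with 5901 peaks in every list it was 7.88 points. When peaks of all kidneys were joined into loci by an overlap of at least 1 bp on the same strand, the long exons gave 1469 loci of 16815 and the shorter exons 7336. Of the long-exon loci, 379 (25.8%) were listed in all 12 kidneys and 155 (10.6%) in a single one. For shorter exons these were 1094 (14.9%) and 1845 (25.1%). At least 2 kidneys of every group held a peak at 725 long-exon loci.

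**Figure D3:**
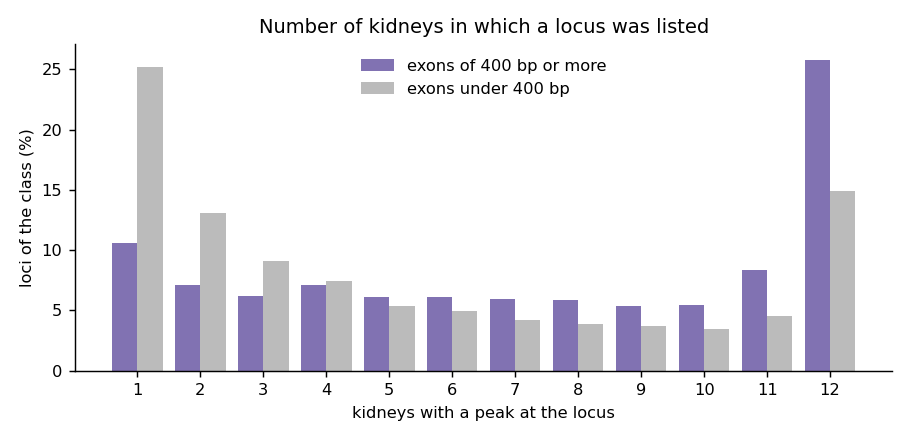
Percentage of loci (vertical axis) by the number of kidneys in which a peak was listed (horizontal axis), for long and shorter internal coding exons. The bar at 12 kidneys is 25.8% for long and 14.9% for shorter exons, and the bar at 1 kidney is 10.6% and 25.1%.

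The motif in which m6A occurs was denser on the gene's own strand. Long-exon peaks held 18.3 RRACH per kb on the gene's strand (17.9 to 18.7 in the 12 kidneys) and 10.9 per kb on the opposite strand, a difference of 7.43 per kb (exact sign-flip p = 0.000488). A smaller strand difference was present in long exons without such a peak. In genes with a peak in that kidney, the strands of those exons differed by 4.61 per kb. They include exons whose peak was left out for holding a start or stop codon. Peaks exceeded those exons by 2.09 RRACH per kb on the gene's strand, in 12 of 12 kidneys (exact p = 0.000488). In the 41 to 82 long exons of a kidney that were only partly covered, the covered part held 17.9 per kb and the uncovered part 16.7 per kb, a difference of 1.11 (SD 1.39, positive in 10 of 12 kidneys, exact p = 0.0234). It was 1.75 with peaks scoring at least 71.3 and 1.52 with 5901 peaks in every list. When the density was counted within 50 bp of the peak's midpoint instead, that difference was 0.714 (exact p = 0.369). The motif GGACT went the other way between strands, with a difference of -0.134 per kb.

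Long-exon peaks were not denser in RRACH than shorter-exon peaks. The densities were 18.3 and 18.6 per kb, a difference of -0.320 (lower in long exons in 11 of 12 kidneys, exact sign-flip p = 0.000977). With peaks scoring at least 71.3 it was -0.183 and did not pass (exact p = 0.0742). Within 50 bp of the midpoint the difference was -0.0447 (exact p = 0.617), and for GGACT it was reversed, at 0.405 per kb. Between 61 and 116 peaks of a kidney were smaller than their long exon and lay within it. Their mean position along the exon, from 0 at its 5' border to 1 at its 3' border, was 0.496 over the 12 kidneys, a difference of -0.00428 from the middle (exact p = 0.381). In wholly coding exons alone the difference was -0.0137, towards the 5' border (exact p = 0.0161). Most touched a border. In IG 3, which had the most, 40 began at the 5' border, 57 ended at the 3' border and 19 touched neither.

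The number of long-exon peaks was lower after cisplatin. The 4 control lists held 991, 987, 976 and 1054 of them, the 4 IG lists 870, 949, 959 and 809, and the 4 TG lists 828, 763, 705 and 742. Every IG kidney was below every control kidney, with means of 1002 ± 35.2 and 896.75 ± 70.8 (SD, n = 4), a fall of 10.5% (exact permutation test over the 70 arrangements, two-sided, p = 0.0286, the smallest that 4 against 4 allows). The difference did not pass without any one control (exact p = 0.0857 in each case), nor for exons of 600 bp or more (-64.75 peaks, exact p = 0.0857). TG had a mean of 759.5 ± 51.6, 15.3% below IG, and here IG 4 was below the highest TG kidney (exact permutation p = 0.0571). The whole lists were shorter too, with 8531 to 9579 peaks in controls, 6745 to 8357 in IG and 5901 to 6753 in TG. When all lists were reduced to their 5901 highest-scoring peaks, the IvC difference was -15.75 peaks (exact p = 0.486) and the TvI difference -57.0 (exact p = 0.114).

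Peaks in shorter exons fell by 22.9% in IvC (3866.25 to 2981.25 per kidney, no overlap, exact permutation p = 0.0286), so that long exons took a larger share of the internal coding exon peaks. This share was 20.9%, 21.1%, 20.4% and 19.95% in controls, 23.7%, 24.5%, 21.8% and 22.6% in IG and 23.3%, 21.5%, 21.9% and 21.3% in TG. All IG kidneys were above all controls, by 2.56 percentage points on average (exact permutation p = 0.0286), a difference that did not pass without any one control (exact p = 0.0571 in each case). TG and IG overlapped (difference -1.15 points, exact p = 0.2), and with lists of equal length the TvI difference was -2.82 points (exact p = 0.0571). With peaks scoring at least 71.3 it was -3.08 points (exact p = 0.0571), without IG replicate 2 it was -0.691 and without IG replicate 3 -1.61. The IvC difference moved with the length of the lists. With 5901 peaks in every list it was 0.215 points (exact p = 0.8), and with peaks scoring at least 71.3 alone it was 2.08 points (exact p = 0.0571).

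**Figure D4:**
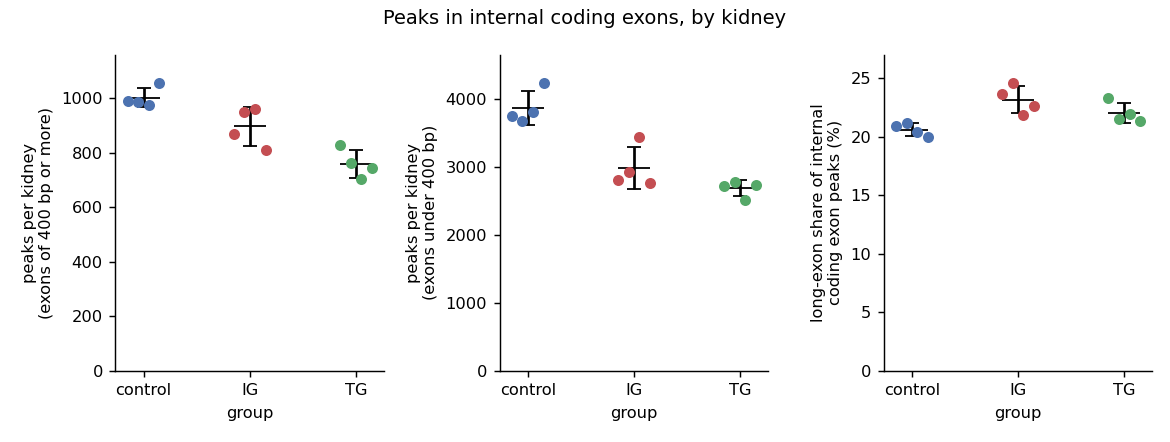
Points are kidneys and bars are group means with SD (n = 4), for peaks per kidney in long exons (left), in shorter exons (middle) and for the long-exon share in percent (right). Control kidneys hold 976 to 1054 long-exon peaks, IG 809 to 959 and TG 705 to 828, and the share is lowest in controls.

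Within genes with a peak, the share of long exons that had one was 49.6% ± 0.987 for controls, 47.1% ± 1.71 for IG and 44.3% ± 1.87 for TG (SD, n = 4). Neither step passed the test (IvC exact permutation p = 0.0571, TvI p = 0.114). In shorter exons the IvC step was 8.37% to 6.99% (exact p = 0.0286). The share of long-exon peaks listed in all other kidneys of the group was 70.3% to 76.0% in controls, 59.6% to 69.96% in IG and 59.3% to 68.9% in TG, a description for the reason given above. The median score of long-exon peaks was 138 ± 14.4 for controls, 129 ± 12.6 for IG and 110 ± 9.99 for TG, and the groups overlapped at each step (IvC exact p = 0.371, TvI p = 0.0571). In the longest class, exons of 2000 bp and more, the listed share was 67.4% ± 2.36 in controls, 68.1% ± 1.99 in IG and 63.6% ± 3.52 in TG.

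Listed whole and at 3100 in every kidney were 6 loci. They were in Eif5b (exon 4 of 24, 670 bp), a translation initiation factor that helps join the ribosomal subunits, in Golga4 (exon 15, 4211 bp) and Golgb1 (exon 12, 5129 bp), which encode coiled-coil golgins, in Ncl (exon 3, 496 bp), the nucleolar protein nucleolin, in Prrc2c (exon 12, 547 bp), and in Tab2 (exon 3, 1501 bp), an adaptor of the TAK1 kinase in inflammatory signalling. Their motif content differed widely. Eif5b held 23.9 RRACH per kb and Prrc2c 23.8, whereas Ncl held 6.05 per kb, 3 motifs in all.

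Next to them by mean score stood Ddx21, a nucleolar RNA helicase, Cobll1, Mfap1a, a splicing factor, and Baz1b, a chromatin remodelling subunit. Ddx21 was at 2127 in control 1 and at the ceiling in the other kidneys. In Baz1b the controls had 2463, 2401, 3017 and 2934, below the IG kidneys at 3093 to 3100, which was not tested. The Mfap1a exon shares runs of 50 bases with Mfap1b and 3 other annotated genes, so that its reads cannot be assigned with certainty. The same holds for Ythdc1, Ythdf2 and Tnrc6a below.

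Between controls and IG, a locus was called when it was listed in 4 of 4 kidneys on one side and in 0 of 4 on the other, the only outcome with an unadjusted Fisher's exact p under 0.05. Of 1444 long-exon loci with a peak in either group, 21 were gained in IG (1.45%) and 46 were lost (3.19%). Over all 16072 loci the shares were 1.35% gained and 2.73% lost, and the long-exon shares were near this background. In shorter exons they were 0.712% and 2.54%. No locus passed after Benjamini-Hochberg adjustment over all loci (0 below 0.05, lowest adjusted p = 0.701 by Fisher's exact test), while 67 long-exon loci had an unadjusted p of 0.0286. With only peaks scoring at least 71.3 there were 35 calls in place of 67, and with a difference of 3 kidneys as the rule 166. The calls below are therefore single loci without support after adjustment.

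The gained loci lay in longer exons (median 1656 bp) than the lost ones (963 bp), as a description. Prg4, which encodes the lubricating glycoprotein lubricin, was gained in its exon 6 of 2286 bp (chr1:150454052-150456337), which held 37.2 RRACH per kb. No control had a peak. The IG kidneys had scores of 308, 791, 88.1 and 811, and the TG kidneys 15.6, 177, 293 and 365. Map1a, a microtubule-associated protein, had no peak in controls, 257, 175, 162 and 44.0 in IG and 304, 393, 356 and 506 in TG, all within its exon 5 of 8104 bp. Its TG scores were all above its IG scores, which was not tested, and the read depth behind each list is unknown.

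Igsf9b, an adhesion protein known from synapses, had 242, 511, 46.0 and 66.0 in IG and a peak in 3 TG kidneys. Vinac1, a relative of vinculin and alpha-catenin, had 272, 169, 44.7 and 153 in IG and a peak in 2 TG kidneys. Nyap1, an adaptor of PI3-kinase, had 150, 215, 31.6 and 102 in IG and a peak in 3 TG kidneys. With only peaks scoring at least 71.3, the calls of Igsf9b, Vinac1, Map1a and Nyap1 were lost (a peak in 2, 3, 3 and 3 IG kidneys), and that of Nyap1 also with lists of equal length. Among the 21 gained loci, all were listed in at least 1 TG kidney and 7 (33.3%) in 4, compared with 38.7% of all 217 gained loci in 4 and 8.76% in none. Of the 21, 18 lay in genes without any other listed peak in a control, and 15 in genes without another one in IG, so that the long exon was often the gene's only listed region.

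The strongest lost locus was in Tgoln1, which encodes a membrane protein of the trans-Golgi network. Its exon 2 of 926 bp (chr6:72615524-72616449) was listed whole in every control, with scores of 1570.0, 3100, 2657 and 2518, and in no IG or TG kidney. Plvap, the protein of the diaphragms that span endothelial fenestrae, had 72.7, 1205, 547 and 176 in controls and no peak in the other 8 kidneys. Kdm6b, a demethylase of histone H3 lysine 27, had 239.7, 377, 405 and 572 in its exon of 2168 bp in controls alone. F8, coagulation factor VIII, had 92.9, 334, 75.9 and 526 in the exon of 3013 bp that encodes most of its B domain, again in controls alone. Cep170b, a centrosomal protein, had 437, 32.1, 340.2 and 217, and its call was lost with the score minimum of 71.3 and with lists of equal length. None of these 5 genes had any other listed peak in an IG kidney.

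Of the 46 lost loci, 31 (67.4%) had no peak in any TG kidney, 10 (21.7%) had one in a single TG kidney and the other 5 had one in 2 to 4. Over all 438 loci lost in IvC, 62.1% had no TG peak and 20.3% had one in a single TG kidney. In 34 of the 46 the gene had no other listed peak in IG, and in 7 it had one in every IG kidney.

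**Figure D5:**
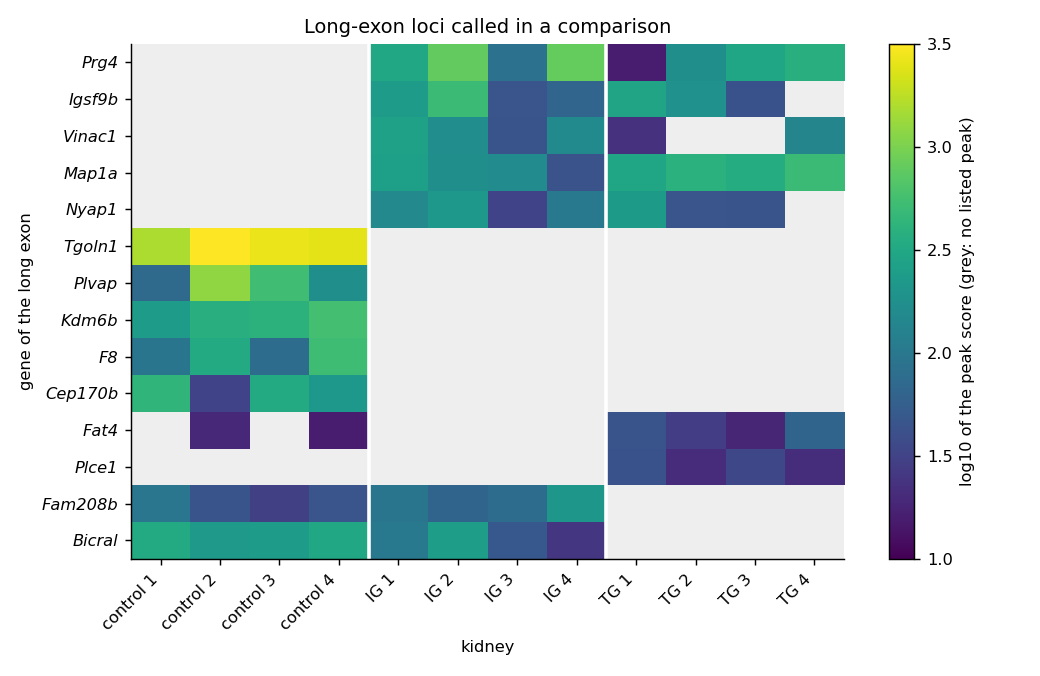
Peak score on a log10 scale (colour; grey where no peak was listed) in each of the 12 kidneys (columns) for 14 called long-exon loci of high score (rows). Gained loci such as Prg4 and Map1a are grey in the 4 controls, and lost loci such as Tgoln1 are grey in the 4 IG kidneys.

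The other calls of IvC, described here after their values were seen, had lower scores, and none of those given here held with the score minimum of 71.3. Pms1, which encodes a protein of the mismatch repair family, was the only gene with 2 lost long exons. In controls its exon of 851 bp had 107, 28.9, 74.5 and 103, and its exon of 480 bp had 63.0, 51.5, 37.8 and 91.8. No IG kidney had any listed peak of Pms1. Adar, an adenosine deaminase that edits double-stranded RNA, had 230.2, 155, 42.4 and 125 in controls, none in IG and 88.9 in TG 4. Tet1, an enzyme that oxidises 5-methylcytosine in DNA, had 32.8, 96.8, 28.7 and 15.4 in controls and a single TG peak at 15.8. Thbs1, the matrix protein thrombospondin 1, had 72.2, 54.3, 53.0 and 21.8, in controls alone. Among the gained loci, Vcan, the matrix proteoglycan versican, had 22.4, 23.4, 29.5 and 57.5 in IG in its exon of 5217 bp, and 29.7 and 176 in 2 TG kidneys. Atad5, a factor that unloads the sliding clamp from replicated DNA, had 40.3, 118, 88.5 and 63.1 in IG and a peak in 4 TG kidneys. Ckap2, a spindle protein, had 69.0, 14.4, 47.2 and 109 in IG and a peak in 3.

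Between IG and TG, 3 long-exon loci were gained and 2 lost among 1303 (0.230% and 0.153%). The background over all 13367 loci was 0.217% and 0.449%. No locus passed the adjustment (0 below 0.05, lowest adjusted p = 1 by Fisher's exact test), and 5 had an unadjusted p of 0.0286. Among the gained loci were Fat4, an atypical cadherin, with 44.4, 28.5, 18.7 and 64.2 in TG and weak peaks in 2 controls, and Plce1, a phospholipase of podocytes, with 42.8, 20.6, 34.9 and 21.0 in TG alone. The lost loci were Fam208b, with 93.7, 63.3, 77.1 and 212 in IG, and Bicral, a subunit of a BAF chromatin remodelling complex, with 103, 253, 48.8 and 24.9. Both were also listed in all controls, where Bicral had 334, 222, 239 and 311. Each of these 4 genes had another listed peak in at least 3 IG and in 4 TG kidneys. No TG score of Fat4 or Plce1 reached 71.3, and the calls of Fam208b and Bicral were lost with that minimum too. In place of 5 calls there were 10, 10, 12 and 18 without IG replicates 1, 2, 3 and 4, and 12 without TG replicate 1, 2 or 3. Leaving out a kidney loosens the rule for a call, so these higher counts are no check of the calls.

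The longest exons were not always listed whole. The 9837 bp exon of Stard9, a mitotic kinesin, was only partly covered, with 197, 122, 89.5 and 132 in controls, 118, 14.5, 107 and 22.4 in IG and a single TG peak at 15.8. The 8020 bp exon of Spen, a transcriptional repressor that binds RNA, was listed in 10 kidneys and whole in each, from 382 in control 1 to 2861 in control 3. The lowest and highest were thus in the same group, and IG 1 and TG 4 had no peak. Ank3, which links membrane proteins to spectrin, had weak peaks of 21.8 to 50.4 in 7 kidneys, over part of its 7674 bp exon. Apob, the core protein of low-density lipoprotein, had no control peak in its 7467 bp exon, 165, 607 and 267 in IG 2 to IG 4, and 211, 277 and 201 in TG 1 to TG 3. One long exon, that of Nexmif (4375 bp), held 2 separate loci that were each listed in at least 2 kidneys, and 1312 exons held 1.

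Several lists of genes were then read, grouped by role. They were drawn up with earlier results of these data known and are a description. Of all 3650 genes with a long internal coding exon, 1231 (33.7%) had a peak in one and 355 had one in all 12 kidneys. In the exon junction complex and its partners, 4 of 14 genes had a long internal exon and all of these had a peak. Eif4a3, Magoh, Magohb and Rbm8a, which encode core proteins, have none. Acin1 was listed in 12 kidneys, with scores of 145, 671, 62.7 and 1123 in controls, 698 to 1110.3 in IG and 191 to 1028 in TG. Upf2, a factor of nonsense-mediated decay, was listed in all 12 at 119 to 365. Srrm1, a splicing coactivator, had a peak in 4 controls (73.7 to 831), in 3 IG kidneys (16.3 to 47.1) and in 1 TG kidney at 589.9. Casc3, a core component of the complex, had only 2 weak peaks, at 18.8 in control 1 and 63.1 in IG 4. None of the 4 was called.

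The list of m6A writer complex and reader genes also held the demethylase genes Fto and Alkbh5. In it, 8 of 15 genes had a long internal exon, and 6 of the 8 had a peak in it that met the rule. The exceptions were Mettl3, the catalytic subunit, with an exon of 405 bp, and the demethylase gene Fto, with one of 619 bp. Zc3h13, which holds the writer complex in the nucleus, had 1182, 1364, 908 and 1199 in controls, 1775, 2563, 1654 and 2176 in IG and 2103, 2668, 1353 and 2597 in TG. Every IG kidney was above every control. The nuclear reader gene Ythdc1 had 872 to 1996 in controls, 3100 in every IG kidney and 2929.7 to 3100 in TG.

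For the cytoplasmic readers the highest score was in a control in each case. Ythdf2 had 1417, 1425, 1913 and 1603 in controls, 298 to 1328 in IG and 200.4 to 856 in TG. Ythdf3 had 717, 249, 665 and 1178 in controls, 67.6 to 485 in IG and 20.3 to 58.7 in 3 TG kidneys. Ythdf1 (exon 5, 1521 bp, chr2:180910687-180912207) was called lost, with 73.8, 97.9, 72.6 and 361 in controls and no peak in any other kidney. One control had another listed peak of Ythdf1, and no IG or TG kidney did. Virma, a scaffold of the writer complex, had 4 weak peaks of 42.2 to 104.7 over the 3 groups. These scores are side by side and were not tested, and the read depth behind each list is unknown.

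Chromatin and transcription genes had the largest number of genes with a peak among these lists, and theirs was the longest list. All 26 had a long internal exon, 22 had a peak and 14 had one in all 12 kidneys. Of the genes with a long internal exon, 84.6% had a peak, against 100% in the exon junction complex list and 77.8% in the cytoskeleton list. Ankrd11, a chromatin cofactor, was listed whole over 6518 bp, at 1202 to 2806 in controls, 3100 in IG and 2346 to 3100 in TG. Setd2, which methylates histone H3 lysine 36, was at 1480 to 3100, 2394 to 3100 and 2005 to 3224. Bod1l (5953 bp), Ankrd12 (4658 bp) and Zfhx3 (5454 bp) were listed in all 12, with lowest scores of 1370.0, 1065 and 304. Jmjd1c, which belongs to the histone demethylase family, had 516 to 1561 in controls, 1138 to 3171 in IG and 683 to 964 in TG.

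Of RNA processing and translation genes, 13 of 17 had a long internal exon, 10 had a peak and 3 were listed in all 12 kidneys. Tut7, a terminal uridylyltransferase, had 149 to 372 in controls, 354 to 807 in IG and 207 to 465 in TG. Son, a nuclear speckle protein, was listed in 11 kidneys, at 763 to 1596 in controls, 222 to 1320.3 in IG and 175 to 495 in 3 TG kidneys. Nktr (154 to 1751 over 11 kidneys), Tnrc6a (27.5 to 292 over 12) and Tut4 (15.4 to 205 over 11) had no call either. The kidney tubule and cilium list had 6 genes of 14 with a long internal exon and peaks in 2 of them. Muc1, a mucin of the distal tubule, was listed in 4 controls (21.4 to 241) and in IG 1 at 47.8, and Pkd1, which encodes polycystin-1, in control 1 alone at 18.1. The long exons of Lrp2, Umod, Pkhd1 and Slc12a1 had no peak that met the rule in any kidney.

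DNA repair and mitosis genes had a long internal exon in 12 of 14 cases and a peak in 8. Mki67, a protein of proliferating cells, had 21.0, 0 (no peak), 25.1 and 14.7 in controls, 393, 275, 284 and 297 in IG and 189, 209.7, 272 and 106 in TG, in its exon of 6836 bp. The control scores were all below those of IG and TG. Mdc1, a mediator of the DNA damage checkpoint, had 25.7, 32.1, 85.8 and 61.3 in controls, 225, 377, 312 and 153 in IG and 244, 130.01, 108 and 55.1 in TG, and every IG kidney was above every control. Neither the Mki67 nor the Mdc1 scores were tested between groups, and the read depth behind each list is unknown. Rif1 was listed whole in all 12, at 481 to 1350 with overlapping groups. Rev3l, a translesion polymerase, had 13.6 to 193 in controls, 236 to 718 in 3 IG kidneys and 15.2 to 79.5 in 3 TG kidneys. Brca2 and Fancm had weak peaks of at most 78.8 and 29.4. The list's one call, named here after its values were seen, was Brca1, gained in IvC with 51.5, 24.0, 41.4 and 68.6 in IG, all under 71.3, no control peak and 2 TG peaks.

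Of 18 cytoskeleton, centrosome and Golgi genes, all had a long internal exon, 14 had a peak and 6 were listed in all 12 kidneys. Besides the golgins described above, Akap9, a centrosome and Golgi scaffold, had 525 to 1835 in controls, 1780 to 3100 in IG and 1062 to 2173 in TG. Tacc2 was at 276 to 2011, Map1b at 103 to 1202 and Pcnt, the centrosome protein pericentrin, at 28.7 to 259.9 in all 12, with no difference called. Gained in IvC were Map1a and, named after its values were seen, Akap11, with 23.0, 89.1, 43.3 and 64.2 in IG, no control peak and 1 TG peak; only 1 of these IG scores reached 71.3.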

How the data were processed

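Per the labels and the study's methods, reads of the immunoprecipitated RNA of 12 kidneys were trimmed with Cutadapt 1.9.3, aligned to mm10 (GRCm38) with HISAT2 2.0.4, and peaks were called with MACS in each sample separately, keeping those that overlap mRNA exons. The MACS version and threshold are not given in the sources used here. The authors deposited 1 list per kidney with positions, strand and a score, -10 log10 of the p-value (lowest 13.02). The lists hold no read counts, so depth is unknown and no counting interval is given; the matching input libraries were not analysed here, and a change in the amount of a transcript cannot be told apart from a change in its methylation.

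Exons came from GENCODE M21 (RefSeq on the same build as an alternative) and sequences from RefSeq GRCm38.p6. Peaks were assigned by midpoint and strand. Groups were compared with exact permutation tests (70 arrangements), long with shorter exons by exact sign-flip tests over 12 kidneys (4096 patterns), and loci by Fisher's exact test adjusted over all loci, in Python 3.11.15 with numpy 2.4.6 and scipy 1.17.1; the code was tested on simulated data. Alternatives were a length of 300 or 600 bp, equal list lengths, a score minimum, ignored strand, wholly coding exons, each kidney left out, joining within 100 bp and others. Named were the 10 long-exon loci of highest mean score, up to 6 called loci per direction, the 5 longest exons listed in at least 6 kidneys, exons with several loci, and up to 6 genes per list; 2 genes of these are not reported here. The members, lists and rules were chosen with earlier results of these data known. Doses and times were taken from the study's methods. Near-identical copies were sought as shared runs of 50 bases with other annotated genes.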

Additional observations from a re-analysis of the deposited data

How the results depend on the processing

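The differences between long and shorter exons in listed exons, bases under peaks, whole-exon peaks and score kept their direction and passed under every alternative that was run. The untested recurrence difference was 2.59 points with scores at or above the median. Peaks per kb were lower in long exons by 0.116, but the value was -0.0254 with the score minimum, -0.0701 with equal list lengths and -0.0166 with wholly coding exons, and reversed to 0.0516 over all protein-coding genes. The RRACH strand difference reversed with GGACT (-0.134 per kb), the difference between long and shorter exons was -0.183 with the score minimum, 0.405 with GGACT and -0.0447 within 50 bp of the midpoint (the first and last did not pass), and the covered minus uncovered difference was 0.714 within 50 bp, 1.75 with the score minimum and 1.52 with equal list lengths. The mean position of peaks smaller than the exon passed with wholly coding exons alone (-0.0137). The causes were not tested.

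The IvC fall in long-exon peaks was -64.75 at 600 bp or more (exact permutation p = 0.0857) and -15.75 with equal list lengths, and leaving out single kidneys gave -126 to -76.0; no control could be left out without losing the call (p = 0.0857). The TvI difference was -115.75 with the score minimum (exact p = 0.0286), and -166.5 to -116.5 with single kidneys left out, passing without IG replicate 4. The IvC share difference was 2.08 with the score minimum, 0.215 with equal list lengths and 2.10 to 3.02 with single kidneys left out, and did not pass without any one control (exact p = 0.0571). With RefSeq exons the count and share differences were -107.75 and 2.66.

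Called loci in IvC numbered 35 with the score minimum and 166 with a difference of at least 3 kidneys; in TvI 8 at 300 bp or more, 8 with the score minimum, 10 with equal list lengths, 58 with a difference of at least 3 kidneys and 5 to 18 with single kidneys left out. Of the calls named, those of Tgoln1, Plvap, Kdm6b, F8, Prg4 and Ythdf1 held with the score minimum, with equal list lengths and with strand ignored. Leaving out 1 kidney cannot end such a call and is no check of it. The others (Igsf9b, Vinac1, Map1a, Nyap1, Cep170b, Fat4, Plce1, Fam208b, Bicral, Adar, Akap11, Atad5, Brca1, Ckap2, both Pms1 exons, Tet1, Thbs1 and Vcan) were lost with the score minimum, and Nyap1, Cep170b, Akap11, Brca1, Ckap2, both Pms1 exons, Tet1, Thbs1 and Vcan also with equal list lengths. None reversed.

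Kidneys of different groups share only a number. Their deviations from the group means correlated by -0.0211 to 0.0255 in IvC and -0.0167 to 0.0490 in TvI over all loci. A replicate block on these numbers left the IvC count at -105.25 and the share at 2.56, both with an exact p = 0.125, the smallest that 4 pairs allow. Counting rows with the same peak name once was not run, since no name is repeated within a list. The number of listed peaks limits every count here, and no result was far enough from its group to be named as an outlier in 42 groups of 4.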
